A study of Homo sapiens with 15 samples.

Results

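The genes described here are 42 genes of ribosome biogenesis and RNA polymerase I transcription, measured by mRNA sequencing in NCI-H69. This established human line, grown from a small cell lung cancer, is of the classic type. They were chosen by name from 62754 gene identifiers in the count table, and all 42 had counts high enough to be tested among 19781 genes. The series set out to find the transcript changes that follow inhibition of FTO, an RNA demethylase of m6A. H69 cells had been given the solvent DMSO, CS2 or FB23-2, both of which the series calls inhibitors of FTO, and 3 libraries of each group were available. CS2 is a name in use for brequinar, which blocks the pyrimidine synthesis enzyme DHODH. Neither a dose nor a treatment time was given in the labels, so it is unknown whether the compounds were used at matched strength, and all 9 libraries are of this 1 line. The series speaks of biological replicates without saying whether they were separate cultures, so the tests measure the spread between these libraries, part of which may be technical.

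Ribosomes are made in the nucleolus. RNA polymerase I, guided by the factor UBF (gene UBTF) and the initiation factor TIF-IA (gene RRN3), transcribes the precursor of the 18S, 5.8S and 28S rRNAs. Small nucleolar ribonucleoproteins (snoRNPs) of the box C/D kind methylate this precursor and those of the box H/ACA kind convert uridines in it to pseudouridine, while large assemblies of processing factors fold and cut it into the 40S and 60S subunits. Many of these genes are known targets of MYC-family transcription factors, which bind the E-box CACGTG with their partner MAX, and small cell lung cancers often carry extra copies of a MYC-family gene.

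Promoter sequences were examined first because the E-box is the letter pattern by which this gene group is best known. RefSeq (GRCh38.p14) promoters of 300 bases, 250 before and 50 after the start of 1 transcript a gene, were at hand for 34 of the 42 genes. Entries were missing for NOP58, NOLC1, TCOF1, RRP12, RRP1B, RRS1, BOP1 and POLR1E. The E-box CACGTG, which reads the same on both strands, was present in 13 of the 34 promoters (38.2%), against 2030 of all 27305 promoters in the table (7.43%) and 1204 of the 12577 promoters of tested genes (9.57%). The 13 genes were FBL, NOP10, MYBBP1A, UTP4, WDR43, UTP14A, UTP20, NOP14, RRP9, BYSL, NAT10, NOP2 and PES1. Of their 14 matches, NOP10 having 2 of them, 12 began within 40 bases of the start. Printed here, in the transcribed direction, are 60 bases before to 20 bases after the start for 8 genes with a match in that window. The same window follows for 4 genes without a match there that the results below turn on. Capitals mark the E-box.
UTP20: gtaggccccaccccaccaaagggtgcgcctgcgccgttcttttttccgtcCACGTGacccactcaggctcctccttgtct
UTP4: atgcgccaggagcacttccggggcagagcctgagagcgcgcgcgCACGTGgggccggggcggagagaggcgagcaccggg
RRP9: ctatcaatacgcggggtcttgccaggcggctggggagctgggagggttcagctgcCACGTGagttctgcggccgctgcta
NAT10: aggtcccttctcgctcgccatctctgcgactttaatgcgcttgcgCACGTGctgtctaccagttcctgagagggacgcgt
NOP10: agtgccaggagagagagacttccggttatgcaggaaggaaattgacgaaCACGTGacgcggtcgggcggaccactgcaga
FBL: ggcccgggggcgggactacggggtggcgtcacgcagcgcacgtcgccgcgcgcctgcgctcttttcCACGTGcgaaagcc
WDR43: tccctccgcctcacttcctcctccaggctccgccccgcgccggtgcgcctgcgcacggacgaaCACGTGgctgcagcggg
PES1: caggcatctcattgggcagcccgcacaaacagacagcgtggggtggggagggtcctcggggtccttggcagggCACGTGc
UBTF: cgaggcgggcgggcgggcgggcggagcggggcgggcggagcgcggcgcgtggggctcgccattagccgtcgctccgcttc
POLR1A: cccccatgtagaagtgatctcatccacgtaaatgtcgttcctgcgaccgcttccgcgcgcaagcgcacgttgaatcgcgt
NPM1: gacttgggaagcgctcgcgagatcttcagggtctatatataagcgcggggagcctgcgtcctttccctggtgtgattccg
HEATR1: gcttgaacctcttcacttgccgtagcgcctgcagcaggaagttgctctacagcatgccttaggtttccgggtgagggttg
These windows lie at chr12:101280045-101280124 (plus strand) for UTP20, chr16:69132589-69132668 (plus) for UTP4, chr3:51941885-51941964 (minus) for RRP9 and chr11:34105569-34105648 (plus) for NAT10. Those of NOP10, FBL, WDR43 and PES1 lie at chr15:34343117-34343196 (minus), chr19:39846360-39846439 (minus), chr2:28894607-28894686 (plus) and chr22:30591891-30591970 (minus). UBTF, POLR1A, NPM1 and HEATR1 were read at chr17:44220863-44220942 (minus), chr2:86105867-86105946 (minus), chr5:171387789-171387868 (plus) and chr1:236604497-236604576 (minus). The match began 10 bases before the first transcribed base in UTP20, 16 before in UTP4, 15 before in NAT10, 11 before in NOP10 and 5 before in RRP9. In WDR43, FBL and PES1 it lay within the transcribed sequence, 3, 6 and 13 bases after that base. A further 3 patterns were searched on both strands in the same promoters, and no match of 1 pattern overlapped a match of another. An ETS-like pattern, CCGGAAG, was found in 12 of 34 promoters (35.3%; 10.7% of all promoters and 17.6% of those of tested genes). An NRF1-like pattern, GCATGCGC, was found in 2 of 34 (5.88%; 3.27% of all promoters and 5.14% of those of tested genes). TGATGNAA, an ATF-like pattern, was found in 0 of 34 (3.67% of all promoters and 1.84% of those of tested genes). A match shows only that the letters are there.

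**Figure D1:**
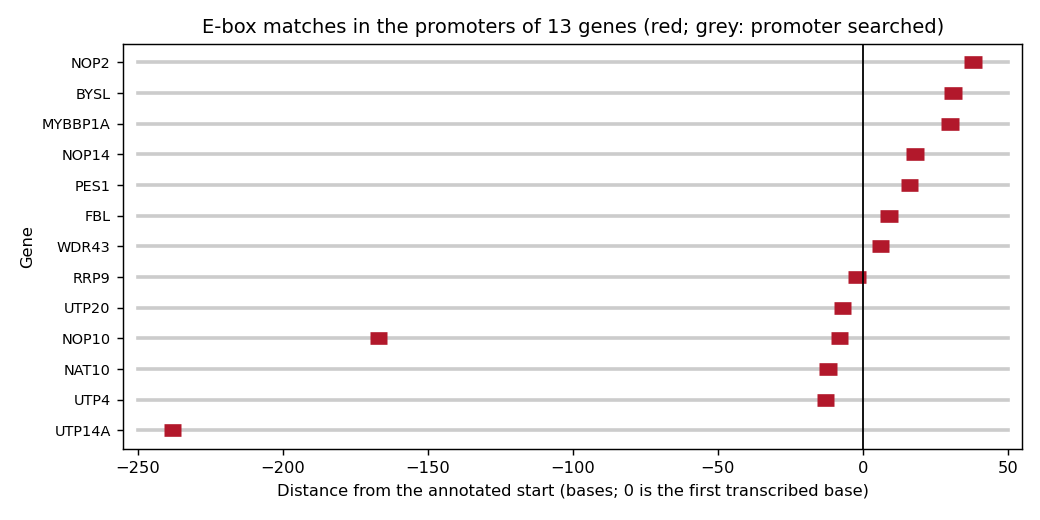
Positions of the E-box CACGTG (red) in the promoters of the 13 genes that hold it, by distance in bases from the first transcribed base at 0; grey lines show the 300 bases searched. Of the 14 matches, 12 begin within 40 bases of the start, and the others lie 170 bases before it in NOP10 and 241 before it in UTP14A.

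The 9 libraries held from 29916267 to 45022633 counts, and levels are given as CPM, which puts counts on a common library size by the TMM method. A count of 3 equals 0.0666 to 0.1003 CPM before that scaling. In the DMSO group 5.46% ± 0.257 (SD, n = 3) of the counts came from mitochondrial genes. The share was 8.22% ± 0.878 in the CS2 group and 8.24% ± 2.37 in the FB23-2 group, where replicate 2 stood apart at 10.97%. Of 8 neuroendocrine markers of small cell lung cancer 7 had a median over 1 CPM, NEUROD1 being the exception, and their summed level was 2515 to 2731 CPM with DMSO, 1987 to 2129 with CS2 and 1978 to 2041 with FB23-2. YAP1, DCN, CD3E and KDR, markers of other tumour states or cell types, were at 0 in every library. The fibroblast list of 5 genes summed to 52.4 to 54.5 CPM with DMSO, 33.2 to 39.95 with CS2 and 10.01 to 15.8 with FB23-2, nearly all of it COL1A2. The 5 genes of the non-neuroendocrine list summed to 47.5 to 51.8, 48.2 to 55.3 and 37.5 to 43.4 CPM, nearly all of it CD44. Blood cell and endothelial lists reached at most 4.05 and 2.47 CPM in any library. Whether the mitochondrial share or the marker levels play a part in the results below was not tested.

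The 42 genes together took a smaller share of the counts with either compound. The share was 0.648%, 0.665% and 0.662% in the 3 DMSO libraries, 0.577%, 0.594% and 0.602% with CS2, and 0.553%, 0.577% and 0.572% with FB23-2. No treated library reached the lowest DMSO value. Abundant genes weigh most in this share, and much of its decrease with CS2 was that of NPM1. NPM1 was at 1317 ± 48.8 CPM with DMSO, 792 ± 110 with CS2 and 1321 ± 208 with FB23-2 (SD, n = 3). With mitochondrial counts left out of the total, the shares were 0.696% ± 0.0082 (SD, n = 3), 0.644% ± 0.013 and 0.619% ± 0.028, and the groups still did not overlap between DMSO and either compound. NPM1 had the highest level per kilobase of exon with DMSO, 344 ± 12.8 CPM per kilobase (SD, n = 3). NOP10 (129 ± 11.03), FBL (127 ± 6.78) and NCL (124 ± 3.39) followed with overlapping ranges. UBTF stood at 48.3 ± 0.956, POLR1A at 9.79 ± 0.359, and NOP2 was lowest at 0.286 ± 0.038 CPM per kilobase. Another gene shares 54.4% of the exon bases of NOP2, so this value may understate it.

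CS2 moved the genes in both directions. Of the 42, 6 were higher and 14 lower than with DMSO at an adjusted p under 0.05 (edgeR's quasi-likelihood test, Benjamini-Hochberg over all genes tested), and 22 did not pass. Over all 19781 genes 49.7% were called, 24.3% higher and 25.3% lower, so the count of higher genes here (14.3%) was under the background and that of lower genes (33.3%) above it. The median log2 fold change of the 42 was -0.094, with a range from -0.89 for POLR1A to 0.43 for NOLC1, against a median of -0.002 over all genes. The 3 libraries of each group did not overlap for 29 of the 42 genes, where 60.6% of all genes had no overlap.

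FB23-2 moved them mostly downward. Of the 42, 21 were lower (50%), 1 was higher (2.38%) and 20 did not pass, beside a background of 52% called, 26.7% lower and 25.4% higher. The median log2 fold change was -0.19, from -1.14 for UBTF to 0.32 for DDX21, against -0.00098 over all genes, and 34 of the 42 estimates were negative. Libraries did not overlap for 25 genes, with a background of 59.8%. UBTF was the only gene of the 42 to change more than 2-fold with either compound. Set directly against CS2, FB23-2 had 19 genes lower and 6 higher, with 17 not passing. The background of that comparison was 59.6% called, 30% lower and 29.7% higher, and the median log2 difference was -0.18 for the 42 and 0.0097 for all genes. With GC content and gene span taken out, as described further on, the CS2 median of the 42 was -0.17 and the FB23-2 median -0.14, so that CS2 had the lower one, and the direct comparison had a median of -0.038. Between the compounds 29 genes had libraries that did not overlap, against 62.9% of all genes.

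Both comparisons with DMSO use the same 3 control libraries, so calls that they have in common are not independent of each other. FBL, DKC1, UTP14A, UTP20, RRP12, RRS1, PES1, POLR1A and UBTF were lower with both compounds. TCOF1 was higher with CS2 and lower with FB23-2. Under the correction for GC content and span, FBL and RRS1 were no longer called with FB23-2, and TCOF1 no longer with CS2. Called with CS2 and not with FB23-2 were NOP56, NOLC1, UTP4, WDR74 and POLR1C (higher) and GAR1, NPM1, WDR43, HEATR1 and POLR1B (lower). Called with FB23-2 and not with CS2 were NHP2, NOP10, NCL, MYBBP1A, RRP9, BYSL, RRP1B, BOP1, PPAN, NIP7 and RRN3 (lower) and DDX21 (higher). The direct test between the compounds passed for each gene called with 1 compound and not the other, except GAR1, RRP9 and NIP7. With GC content and span taken out, NHP2, MYBBP1A, WDR43, WDR74 and BOP1 also missed in the direct test and GAR1 passed. NOP58, LYAR, GNL3, WDR75, NOP14, NAT10, NOP2, NOP16, WDR12 and POLR1E passed in no comparison as fitted here, and 6 of these 10 (NOP58, WDR75, NAT10, NOP2, WDR12 and POLR1E) passed in at least 1 under that correction.

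**Figure D2:**
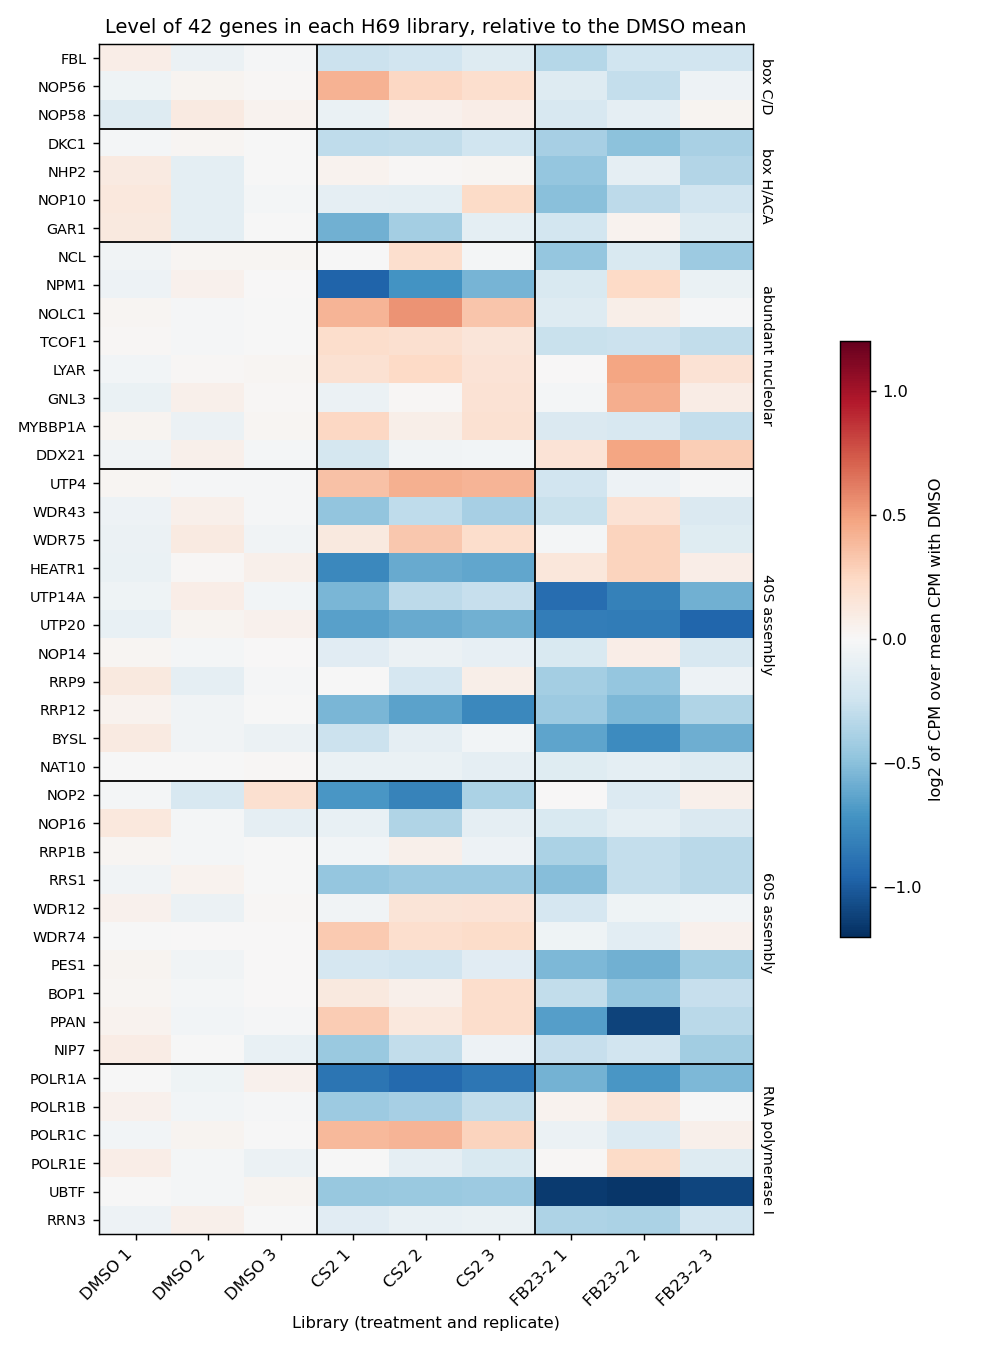
Level of each of the 42 genes (rows, grouped by role) in each of the 9 libraries (columns) as log2 of CPM over the mean CPM with DMSO. Blue is lower and red higher: UBTF, UTP20 and UTP14A are blue in all 6 treated libraries, while NPM1, HEATR1 and POLR1B are blue in the 3 CS2 libraries.

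RNA polymerase I and its factors held the largest decreases of each compound. With CS2, 3 of 6 genes fell and 1 rose (median log2 fold change -0.24), and with FB23-2 3 of 6 fell (median -0.19). Over all genes 25.3% were lower and 24.3% higher with CS2, and 26.7% and 25.4% with FB23-2. Whether the counts of so small a role differ from these shares was not tested. UBTF (ENSG00000108312, chr17:44205033-44221626, minus strand in GENCODE 29) encodes UBF, the HMG-box protein that keeps rDNA chromatin open. It was measured at 338, 331 and 345 CPM with DMSO, 247, 248 and 249.8 with CS2, and 153, 150.5 and 158 with FB23-2. The 3 groups were fully separated, with FB23-2 lowest. The log2 fold change was -0.44 ± 0.066 (SE, edgeR adjusted p = 1.43e-05) for CS2 and -1.14 ± 0.067 (SE, edgeR adjusted p = 4.94e-11) for FB23-2, and the direct difference between the compounds was -0.69 ± 0.066 (SE, edgeR adjusted p = 3e-08). POLR1A (ENSG00000068654, chr2:86020216-86106155, minus strand) encodes the largest, catalytic subunit. The 3 libraries of each group gave 132, 128 and 137 CPM with DMSO, 72.1, 69.4 and 72.3 with CS2, and 89.1, 81.3 and 90.9 with FB23-2. Here the order was reversed, with CS2 lowest and no overlap among the groups. CS2 gave -0.89 ± 0.076 (SE, edgeR adjusted p = 1.01e-08), FB23-2 gave -0.60 ± 0.075 (SE, edgeR adjusted p = 1.57e-06), and the difference between them was 0.29 ± 0.076 (SE, edgeR adjusted p = 0.00269).

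The other subunits did not follow POLR1A together. POLR1B (ENSG00000125630, chr2:112541915-112577150, plus strand) encodes the second-largest subunit, which shares the active site with the largest. Normalised counts were 91.1, 85.8 and 87.2 CPM with DMSO, 65, 66.98 and 71.7 with CS2, and 90.6, 97.3 and 87.6 with FB23-2. Its CS2 libraries lay below all others, and the DMSO and FB23-2 libraries overlapped. The log2 fold change was -0.37 ± 0.078 (SE, edgeR adjusted p = 0.00051) for CS2, 0.062 ± 0.077 (SE, edgeR adjusted p = 0.523) for FB23-2 and 0.44 ± 0.078 (SE, edgeR adjusted p = 7.58e-05) between the compounds. POLR1C, a subunit that RNA polymerases I and III share, rose with CS2 from 32.7 ± 0.716 to 41.8 ± 2.22 CPM (0.35 ± 0.09, SE, edgeR adjusted p = 0.00286), and 18.2% of its exon bases overlap genes on the opposite strand. POLR1E, a subunit of the initiation-related heterodimer, passed in no comparison (-0.095 ± 0.097 and 0.04 ± 0.097 for CS2 and FB23-2). RRN3, whose product recruits the polymerase to the promoter, fell with FB23-2 from 147 ± 6.31 to 118 ± 7.05 CPM (-0.32 ± 0.073, SE, edgeR adjusted p = 0.000978). Its CS2 level was 138 ± 2.65 CPM (-0.1 ± 0.073, not passing). In RRN3 25.0% of the 50-base windows also occur in other genes, mainly its pseudogenes RRN3P1, RRN3P2 and RRN3P3, which were listed with 0 counts in every library.

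**Figure D3:**
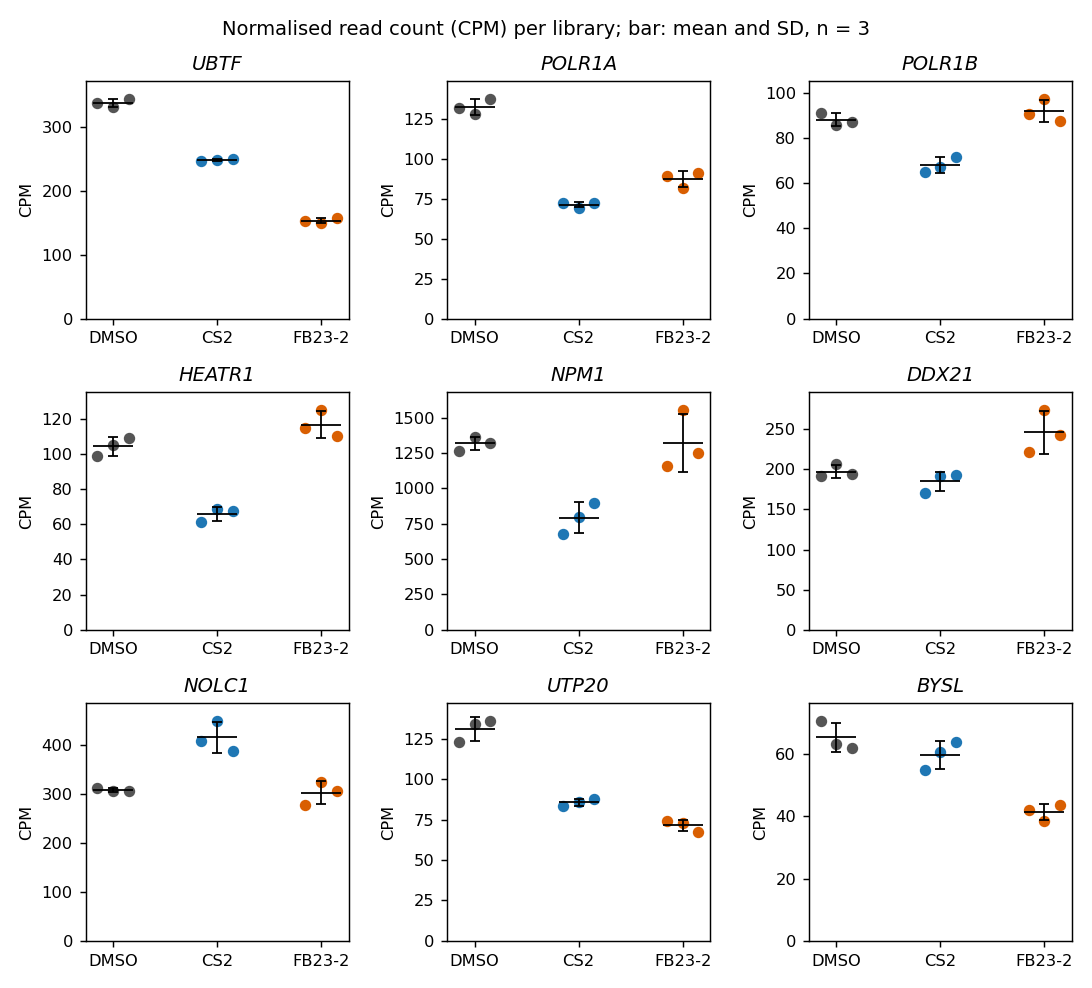
CPM of 9 of the genes in each library (points), with the mean and SD of the 3 libraries of each group (bars). UBTF steps down from 338 CPM with DMSO to 248 with CS2 and 154 with FB23-2, while in POLR1B, HEATR1 and NPM1 the 3 CS2 libraries lie below the other 6.

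Most small subunit factors that passed were lower. These 11 genes encode parts of the small subunit processome, the assembly that forms on the nascent precursor, and later 40S factors. CS2 lowered 5 and raised 1 (45.5% and 9.09%, median -0.13), against 25.3% and 24.3% of all genes. FB23-2 lowered 5 (45.5%, median -0.14), against 26.7% of all genes. UTP20 (ENSG00000120800, chr12:101280109-101386616, plus strand), a very large HEAT-repeat scaffold of the processome, fell most with FB23-2. Its level was 123, 134 and 136 CPM with DMSO, 83.2, 86 and 87.8 with CS2, and 73.9, 73.02 and 67.5 with FB23-2. The groups were separate and both compounds lay below DMSO in every library. CS2 gave -0.61 ± 0.076 (SE, edgeR adjusted p = 1.67e-06), FB23-2 gave -0.87 ± 0.076 (SE, edgeR adjusted p = 1.43e-08), and the difference was -0.26 ± 0.077 (SE, edgeR adjusted p = 0.00628). HEATR1 (ENSG00000119285, chr1:236549005-236604504, minus strand), the human UTP10 scaffold required for precursor transcription, moved otherwise. It was measured at 98.6, 105 and 109 CPM with DMSO, 61.1, 68.5 and 67.4 with CS2, and 114, 125 and 110.3 with FB23-2. The CS2 libraries lay well under the rest. The values were -0.67 ± 0.081 (SE, edgeR adjusted p = 1.18e-06) for CS2 and 0.16 ± 0.08 (SE, edgeR adjusted p = 0.0936) for FB23-2, and their difference of 0.83 ± 0.081 (SE, edgeR adjusted p = 3.76e-08) was the largest increase of FB23-2 over CS2 among the 42. Of its exon bases 23.2% overlap other genes, mostly LGALS8 on the opposite strand, so reads of the pair may be mixed.

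UTP14A, a cofactor of the helicase DHX37, was lower with both compounds. The 3 libraries of each group gave 41.1, 44.97 and 41.6 CPM with DMSO, 29.2, 34.2 and 35.1 with CS2, and 22.6, 24.3 and 28.5 with FB23-2. All 3 groups were apart. The log2 fold change was -0.38 ± 0.10 (SE, edgeR adjusted p = 0.00484) with CS2, -0.76 ± 0.10 (SE, edgeR adjusted p = 4.73e-06) with FB23-2 and -0.38 ± 0.10 (SE, edgeR adjusted p = 0.00361) between the compounds. RRP12, which takes part in the export and maturation of 40S precursors, was also lower with both. Normalised counts were 46.6, 43.9 and 45.1 CPM with DMSO, 30.95, 28.9 and 26.4 with CS2, and 33.5, 31.1 and 35.2 with FB23-2. CS2 and FB23-2 libraries did not overlap, but their difference did not pass. CS2 gave -0.65 ± 0.092 (SE, edgeR adjusted p = 7.63e-06), FB23-2 gave -0.44 ± 0.091 (SE, edgeR adjusted p = 0.000406) and the difference was 0.21 ± 0.092 (SE, edgeR adjusted p = 0.0588). BYSL (bystin, a 40S assembly factor) was lower with FB23-2 alone. Its level was 70.7, 63.4 and 62.1 CPM with DMSO, 54.8, 60.5 and 63.8 with CS2, and 42.1, 38.6 and 43.6 with FB23-2. The CS2 range ran into that of DMSO. CS2 gave -0.13 ± 0.089 (SE, edgeR adjusted p = 0.232), FB23-2 gave -0.66 ± 0.089 (SE, edgeR adjusted p = 4.48e-06) and the difference was -0.53 ± 0.089 (SE, edgeR adjusted p = 4.29e-05).

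UTP4 (cirhin), a WD-repeat subunit of the tUTP group that binds early, was the only gene of this role to rise, from 77.9 ± 1 CPM with DMSO to 103 ± 2.88 with CS2 (0.40 ± 0.078, SE, edgeR adjusted p = 0.000286). With FB23-2 it was at 72.9 ± 5.55 CPM (-0.096 ± 0.078, not passing). WDR43, also a tUTP subunit, fell with CS2 from 70.5 ± 3.02 to 53.9 ± 3.12 CPM (-0.39 ± 0.10, SE, edgeR adjusted p = 0.0033). RRP9, a protein of the U3 snoRNP, was lower with FB23-2 (-0.30 ± 0.11, SE, edgeR adjusted p = 0.0274), although its libraries overlapped those of DMSO. WDR75, NOP14 and NAT10, the rRNA acetyltransferase, did not pass in any comparison, with estimates from -0.14 (NAT10, FB23-2) to 0.22 (WDR75, CS2) against DMSO. Members of the tUTP group went in different directions with CS2, with UTP4 higher, WDR43 and HEATR1 lower and WDR75 not passing.

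Of the 10 factors of 60S assembly CS2 raised 1 and lowered 2 (10% and 20%, median -0.096), against 24.3% and 25.3% of all genes. FB23-2 lowered 6 (60%, median -0.32), against 26.7% of all genes, and all 10 of its estimates were negative. With GC content and span taken out, FB23-2 estimates of NOP2 (0.097), WDR74 (0.10) and NOP16 (0.015) were positive and the others negative. RRP1B, PES1 and PPAN were then still called lower, and RRS1, BOP1 and NIP7 were not. Whether the CS2 and FB23-2 counts differ was not tested. PES1 (ENSG00000100029, chr22:30576625-30607083, minus strand), BOP1 and WDR12 form the PeBoW complex, which is needed to process the 28S precursor. It was measured at 179, 170.2 and 176 CPM with DMSO, 152, 149.8 and 159.8 with CS2, and 120.4, 118 and 131 with FB23-2. The 3 groups were separate. PES1 gave -0.19 ± 0.072 (SE, edgeR adjusted p = 0.0365) with CS2, -0.51 ± 0.072 (SE, edgeR adjusted p = 7.2e-06) with FB23-2 and -0.32 ± 0.072 (SE, edgeR adjusted p = 0.000678) between the compounds. With GC content and span taken out the CS2 estimate of PES1 was -0.34 and the difference between the compounds was -0.063 (edgeR adjusted p = 0.431), which no longer passed. BOP1 went from 130.4 ± 2.44 CPM with DMSO to 143 ± 7.53 with CS2 (0.13 ± 0.076, not passing) and fell to 103 ± 7.24 with FB23-2 (-0.34 ± 0.076, SE, edgeR adjusted p = 0.0009). Under the same correction BOP1 did not pass with FB23-2 (-0.13) and its difference between the compounds went from -0.47 to -0.027 (edgeR adjusted p = 0.744). WDR12 was at 44.4 ± 2.03, 47.4 ± 3.74 and 41.5 ± 2.54 CPM with DMSO, CS2 and FB23-2 and passed in no comparison. With the correction it was higher with CS2 (0.35, edgeR adjusted p = 0.00135) and lower with FB23-2 than with CS2 (-0.53, edgeR adjusted p = 1.43e-05). The latter also passed without CS2 replicate 1 (-0.26) or FB23-2 replicate 2 (-0.21). The span used for WDR12, 140 kb (chr2:202874782-203014798, minus strand), was the longest of the 42. Its RefSeq promoter lies well inside that span, at chr2:202911624-202911923, so the span may exceed that of the transcripts counted. Whether the corrected estimates of WDR12 rest on this span was not tested.

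RRS1, which helps to bring the 5S RNP into the precursor, was lower with both compounds. The 3 libraries of each group gave 26.7, 28.2 and 27.4 CPM with DMSO, 19.9, 20.3 and 20.3 with CS2, and 19.3, 22.6 and 21.98 with FB23-2. Every treated library lay below every DMSO library, and the treated groups overlapped. CS2 gave -0.45 ± 0.096 (SE, edgeR adjusted p = 0.000708), FB23-2 gave -0.37 ± 0.095 (SE, edgeR adjusted p = 0.00317), and the difference was 0.079 ± 0.097 (SE, edgeR adjusted p = 0.498). AC009879.2, on the same strand, overlaps 11.4% of the exon bases of RRS1. PPAN, a Brix-domain protein of 60S maturation, had the largest FB23-2 decrease of this role. Normalised counts were 15, 14.3 and 14.4 CPM with DMSO, 17.98, 15.9 and 16.8 with CS2, and 9.18, 6.76 and 11.6 with FB23-2. FB23-2 replicate 2 was lowest and replicate 3 highest of its group, all below DMSO. CS2 gave 0.21 ± 0.14 (SE, edgeR adjusted p = 0.225), FB23-2 gave -0.67 ± 0.15 (SE, edgeR adjusted p = 0.000774) and the difference was -0.88 ± 0.15 (SE, edgeR adjusted p = 3.5e-05). Exons of other genes cover 59.8% of PPAN's exon bases, mainly the read-through gene PPAN-P2RY11, which held 1 count in all 9 libraries. P2RY11, the gene downstream, was at 11.2 ± 1.27 CPM with DMSO, 14.3 ± 1.29 with CS2 and 6.34 ± 1.83 with FB23-2 (SD, n = 3), the same order as PPAN.

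NOP2, an rRNA methyltransferase, had the lowest level of the 42 genes. Its level was 1.32, 1.18 and 1.53 CPM with DMSO, 0.825, 0.771 and 1.03 with CS2, and 1.34, 1.2 and 1.4 with FB23-2. The CS2 libraries lay below the other 6. CS2 gave -0.62 ± 0.26 (SE, edgeR adjusted p = 0.0561), FB23-2 gave -0.041 ± 0.25 (SE, edgeR adjusted p = 0.9) and the difference was 0.58 ± 0.26 (SE, edgeR adjusted p = 0.0652), so none passed. Of its exon bases 54.4% are shared with AC006064.6, a gene on the same strand listed with 0 counts throughout, and 49.3% of its 50-base windows occur in another gene. How reads of shared sequence were counted is not known, so the low count may not give the full level of NOP2. WDR74, which acts with the remodeller NVL, rose with CS2 (0.25 ± 0.083, SE, edgeR adjusted p = 0.0169). Of its exon bases 22.3% overlap other genes, AP001160.1 on the opposite strand and TEX54 and RNU2-2P on the same strand. RRP1B, a nucleolar partner of protein phosphatase 1, and NIP7 fell with FB23-2 (-0.33 ± 0.069, SE, edgeR adjusted p = 0.000491, and -0.31 ± 0.11, SE, edgeR adjusted p = 0.028). COG8, on the opposite strand, overlaps 20.2% of the exon bases of NIP7. NOP16 passed in no comparison.

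Nucleolin and nucleophosmin, the best-known nucleolar proteins, each responded to a different compound. Of the 8 abundant nucleolar proteins and chaperones CS2 raised 2 and lowered 1 (25% and 12.5%, median 0.12), against 24.3% and 25.3% of all genes. FB23-2 raised 1 and lowered 3 (12.5% and 37.5%, median -0.012), against 25.4% and 26.7% of all genes. NPM1 (nucleophosmin, ENSG00000181163, chr5:171387116-171411137, plus strand), a histone and ribosomal protein chaperone, fell with CS2 alone. It was measured at 1266, 1364 and 1322 CPM with DMSO, 677, 800.3 and 897 with CS2, and 1159.8, 1555 and 1247 with FB23-2. The CS2 libraries lay below the other 6, while FB23-2 replicate 2 was the highest of all 9. The log2 fold change was -0.73 ± 0.10 (SE, edgeR adjusted p = 1.03e-05) for CS2, 0.0039 ± 0.10 (SE, edgeR adjusted p = 0.977) for FB23-2 and 0.74 ± 0.10 (SE, edgeR adjusted p = 6.02e-06) between them. Of its 50-base windows 18.9% occur in other genes, and 45 identifiers of NPM1 pseudogenes summed to 37.5 ± 1.89 CPM with DMSO, 25.0 ± 3.94 with CS2 and 41.9 ± 5.99 with FB23-2 (SD, n = 3), in the same order as NPM1. NCL (nucleolin, ENSG00000115053, chr2:231453531-231483641, minus strand), which binds the precursor and rDNA chromatin, fell with FB23-2 alone. The 3 libraries of each group gave 833, 876 and 871 CPM with DMSO, 859, 987 and 848 with CS2, and 623, 759 and 636 with FB23-2. All FB23-2 libraries were below all others. CS2 gave 0.062 ± 0.083 (SE, edgeR adjusted p = 0.558), FB23-2 gave -0.35 ± 0.083 (SE, edgeR adjusted p = 0.00133) and the difference was -0.42 ± 0.083 (SE, edgeR adjusted p = 0.000232).

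TCOF1 (treacle, ENSG00000070814, chr5:150357629-150400308, plus strand), which ties UBF and RNA polymerase I to rDNA, was the only gene of the 42 called in opposite directions against DMSO. Normalised counts were 222, 217 and 219 CPM with DMSO, 254, 251 and 243 with CS2, and 183, 184 and 179 with FB23-2. The 3 groups did not overlap. CS2 gave 0.19 ± 0.066 (SE, edgeR adjusted p = 0.0253), FB23-2 gave -0.27 ± 0.066 (SE, edgeR adjusted p = 0.00197) and the direct difference was -0.46 ± 0.066 (SE, edgeR adjusted p = 7.14e-06). NOLC1, the snoRNP chaperone that pairs with treacle, was the largest increase with CS2 and is named here after its values were seen. Its level was 312, 304 and 306 CPM with DMSO, 408, 448 and 387 with CS2, and 277, 324 and 305 with FB23-2. The CS2 libraries were above all others. CS2 gave 0.43 ± 0.076 (SE, edgeR adjusted p = 0.000105), FB23-2 gave -0.027 ± 0.076 (SE, edgeR adjusted p = 0.781) and the difference was -0.46 ± 0.076 (SE, edgeR adjusted p = 3.55e-05). DDX21, an RNA helicase of both polymerase I and II transcription and likewise named after its values were seen, was the only gene raised by FB23-2. It was measured at 192, 206 and 194 CPM with DMSO, 171, 192 and 192 with CS2, and 222, 274 and 242 with FB23-2. Every FB23-2 library was above the DMSO range. CS2 gave -0.093 ± 0.082 (SE, edgeR adjusted p = 0.368), FB23-2 gave 0.32 ± 0.082 (SE, edgeR adjusted p = 0.00297) and the difference was 0.41 ± 0.082 (SE, edgeR adjusted p = 0.000249). MYBBP1A, a repressor of rDNA transcription, fell with FB23-2 (-0.22 ± 0.086, SE, edgeR adjusted p = 0.0417), and LYAR and GNL3 (nucleostemin) passed in no comparison.

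With CS2, proteins of the box C/D snoRNP were called in opposite directions. With FB23-2 all 3 estimates of this particle and all 4 of the box H/ACA particle were negative. Over all genes 24.3% were higher and 25.3% lower with CS2, and 26.7% were lower with FB23-2. Of the box C/D proteins, which carry the methyltransferase, CS2 raised 1 and lowered 1 of 3 and FB23-2 lowered 1 (33.3% each). FBL (fibrillarin, ENSG00000105202, chr19:39834458-39846414, minus strand) is that methyltransferase. The 3 libraries of each group gave 292, 263 and 274 CPM with DMSO, 231, 236 and 248 with CS2, and 218, 234 and 236 with FB23-2. Every treated library was below every DMSO library. CS2 gave -0.21 ± 0.071 (SE, edgeR adjusted p = 0.017), FB23-2 gave -0.27 ± 0.071 (SE, edgeR adjusted p = 0.00343) and the difference was -0.056 ± 0.071 (SE, edgeR adjusted p = 0.515). NOP56 (ENSG00000101361, chr20:2652145-2658393, plus strand), a scaffold of the same particle whose introns hold snoRNA genes, went the other way with CS2. Normalised counts were 311, 331 and 326 CPM with DMSO, 432, 384 and 371 with CS2, and 289, 265 and 309 with FB23-2. The CS2 libraries were the highest of the 9. CS2 gave 0.30 ± 0.078 (SE, edgeR adjusted p = 0.00372), FB23-2 gave -0.16 ± 0.078 (SE, edgeR adjusted p = 0.0822) and the difference was -0.46 ± 0.078 (SE, edgeR adjusted p = 4.17e-05). NOP58, the partner scaffold, was at 77.5 ± 7.28, 78.6 ± 4.51 and 72.9 ± 5.66 CPM with DMSO, CS2 and FB23-2 and passed in no comparison, so that with CS2 the 3 proteins of this particle were called lower, called higher and not called.

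Of the 4 box H/ACA proteins CS2 lowered 2 (50%) and FB23-2 lowered 3 (75%), where 25.3% and 26.7% of all genes were lower. DKC1 (dyskerin, ENSG00000130826, chrX:154762742-154777689, plus strand), the pseudouridine synthase, was lower with both. Its level was 334, 344 and 338 CPM with DMSO, 275, 276 and 286 with CS2, and 256, 241 and 259 with FB23-2. The groups did not overlap. CS2 gave -0.28 ± 0.067 (SE, edgeR adjusted p = 0.00188), FB23-2 gave -0.42 ± 0.067 (SE, edgeR adjusted p = 2.68e-05) and the difference was -0.15 ± 0.067 (SE, edgeR adjusted p = 0.0647). GAR1, which joins the mature particle, fell with CS2. It was measured at 19.9, 16.98 and 18.3 CPM with DMSO, 12.4, 13.9 and 16.97 with CS2, and 15.8, 18.99 and 16.5 with FB23-2. CS2 replicate 3 touched the lowest DMSO library to the first decimal. CS2 gave -0.36 ± 0.12 (SE, edgeR adjusted p = 0.022), FB23-2 gave -0.11 ± 0.12 (SE, edgeR adjusted p = 0.491) and the difference was 0.25 ± 0.12 (SE, edgeR adjusted p = 0.0882). NHP2 and NOP10, which complete the core, fell with FB23-2 (-0.30 ± 0.09, SE, edgeR adjusted p = 0.00913, and -0.34 ± 0.10, SE, edgeR adjusted p = 0.00821). NHP2 libraries overlapped between FB23-2 and DMSO, and 27.4% of its exon bases overlap RMND5B on the opposite strand.

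**Figure D4:**
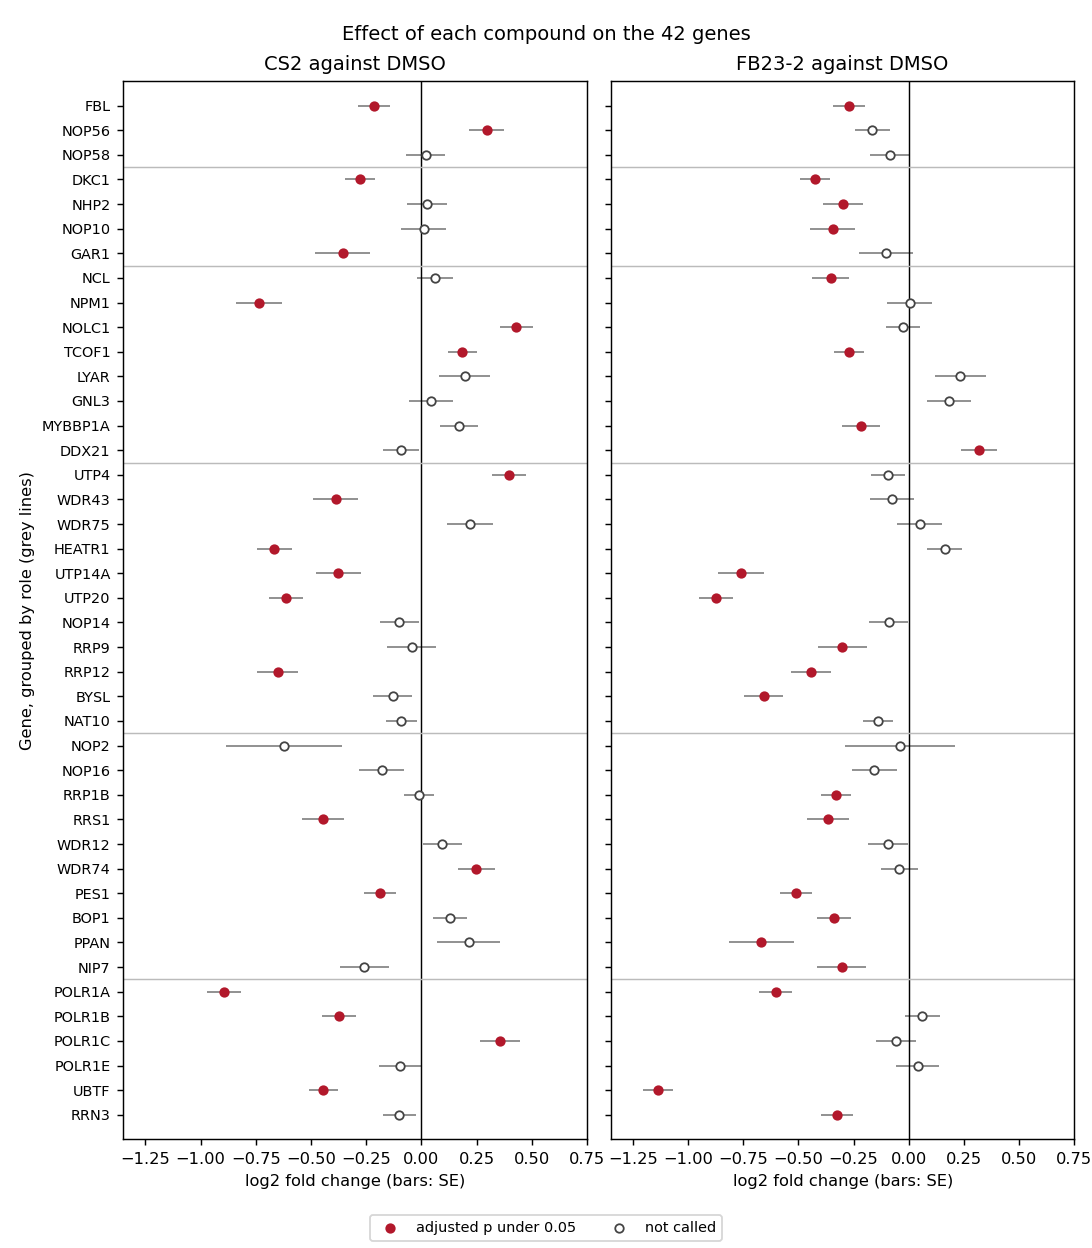
log2 fold change against DMSO of each of the 42 genes with CS2 (left) and FB23-2 (right), grouped by role; bars are SE and filled points have an adjusted p under 0.05. FB23-2 has 21 filled points left of 0 and 1 (DDX21) right of it, and CS2 has 14 left and 6 right.

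Several of the smaller calls missed the threshold when 1 library was left out, with estimates that mostly stayed near those of all 9 libraries. For CS2, the decrease of FBL (-0.21) no longer passed without DMSO replicate 1 or 3 or without CS2 replicate 1 or 2, with estimates from -0.17 to -0.22 (edgeR adjusted p from 0.0503 to 0.0903). That of GAR1 (-0.36) missed without the same 4, at -0.25 to -0.36 (edgeR adjusted p from 0.0555 to 0.131). TCOF1 (0.19) missed without DMSO replicate 2 or 3 or CS2 replicate 1 or 2, at 0.18 in each case (edgeR adjusted p from 0.061 to 0.0859). WDR74 (0.25) missed without DMSO replicate 2 or 3 or CS2 replicate 1 (0.22 to 0.25), and PES1 (-0.19) without any DMSO library or without CS2 replicate 1 or 2 (-0.16 to -0.21). For FB23-2, NHP2 (-0.30) and NOP10 (-0.34) missed without DMSO replicate 1 or FB23-2 replicate 1, at -0.24 and -0.21 for NHP2 and -0.28 and -0.26 for NOP10. MYBBP1A (-0.22) missed without any DMSO library, without CS2 replicate 2 or 3 and without FB23-2 replicate 1 or 3 (-0.17 to -0.25). RRP9 (-0.30) missed without DMSO replicate 1 or 3 or FB23-2 replicate 1 or 2 (-0.22 to -0.31), and NIP7 (-0.31) without DMSO replicate 1 or 2 or FB23-2 replicate 1 or 3 (-0.24 to -0.31). Without FB23-2 replicate 1 the number of genes raised by FB23-2 was 3, LYAR (log2 fold change 0.35) and GNL3 (0.28) joining DDX21. Without FB23-2 replicate 2, WDR43 was called lower with FB23-2 (-0.22, edgeR adjusted p = 0.0256). With CS2, NIP7 was called lower without CS2 replicate 3 (-0.36, edgeR adjusted p = 0.0194) or FB23-2 replicate 2 (-0.26). WDR75 was called higher with CS2 without FB23-2 replicate 2 (0.22). Between the compounds RRN3 missed without FB23-2 replicate 1 (-0.19, from -0.22). A larger move was seen for NOP10, from -0.36 to -0.23 without CS2 replicate 3, and for WDR43, from 0.31 to 0.17 without FB23-2 replicate 2, neither of which then passed; WDR43 also missed without CS2 replicate 1 (0.27).

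The effect of FB23-2 went with the base composition of the transcripts. Over the 42 genes, Pearson's r between GC content of the longest transcript and the log2 fold change was -0.45 for FB23-2 and 0.05 for CS2 (Spearman's rho -0.53 and -0.02). Over 18912 tested genes with annotation it was -0.15 and 0.12. These are descriptions across genes that share the same 9 libraries. When GC content and gene span were taken out of each library as smooth trends, FB23-2 had 16 genes lower and 0 higher in edgeR's test, CS2 17 lower and 5 higher, and the difference between the compounds 17 lower and 9 higher. All genes then had 25.3% lower and 27.3% higher with FB23-2, 23.1% and 26.4% with CS2, and 29.6% and 28.1% between the compounds. FBL, NHP2, MYBBP1A, RRP9, RRS1, BOP1 and NIP7 were no longer called lower with FB23-2, and DDX21 was no longer called higher (0.15, edgeR adjusted p = 0.0621). NOP58 (-0.25) and WDR43 (-0.25) were newly called lower. At an unadjusted p under 0.05 the corrected fit had 1 of the 42 higher with FB23-2. UBTF (-1.04), UTP20 (-0.95), UTP14A (-0.79), POLR1A (-0.55), BYSL (-0.50) and NCL (-0.41) were still called lower. For CS2, POLR1A (-0.83), NPM1 (-0.80), RRP12 (-0.70), HEATR1 (-0.65) and UBTF (-0.57) were still lower and UTP4 (0.53), NOLC1 (0.37), POLR1C (0.35) and NOP56 (0.28) still higher, while TCOF1 (0.087) and WDR74 (0.15) were not. BYSL (-0.26), NAT10 (-0.16) and NOP2 (-0.74) were newly called lower with CS2 and WDR12 (0.35) newly higher. Between the compounds NHP2 (-0.070), MYBBP1A (-0.0078), WDR74 (-0.049), PES1 (-0.063), BOP1 (-0.027) and WDR43 (0.13) were no longer called. NOP58 (-0.24), WDR75 (-0.37) and WDR12 (-0.53) were newly lower with FB23-2 than with CS2, and GAR1 (0.31), RRP12 (0.40), NOP2 (0.84) and POLR1E (0.27) newly higher. Of the calls that held, the PPAN decrease with FB23-2 shrank to -0.38, and between the compounds the differences of TCOF1 (-0.28), BYSL (-0.25) and PPAN (-0.48) were smaller and those of UTP20 (-0.50) and RRN3 (-0.34) larger by over 1.5 times. Whether GC content acts through the cells or through library preparation was not tested.

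**Figure D5:**
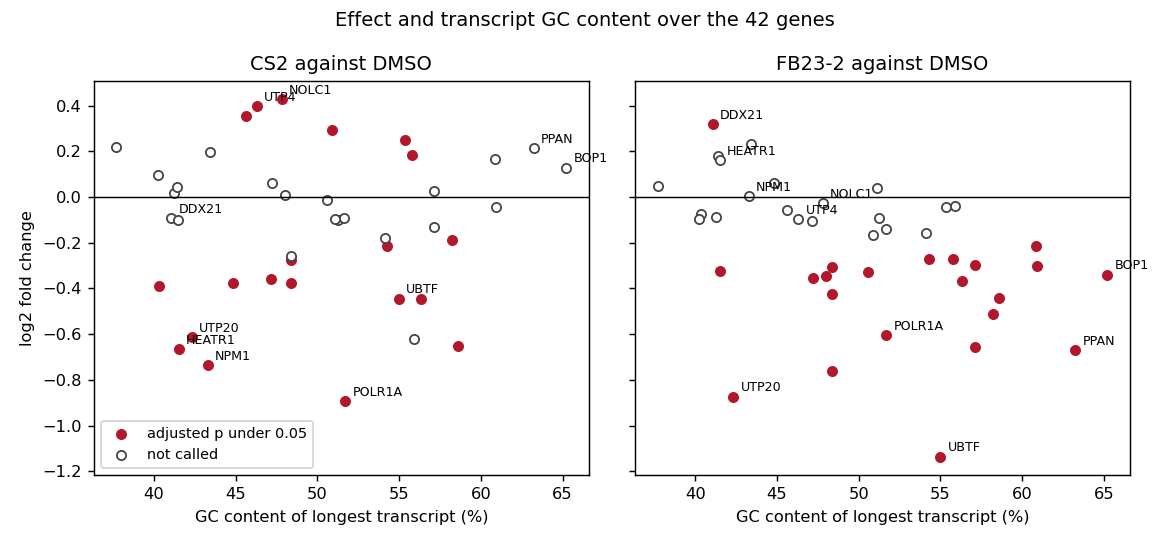
log2 fold change of each of the 42 genes against the GC content of its longest transcript in percent, with CS2 (left) and FB23-2 (right); filled points have an adjusted p under 0.05. With FB23-2 points fall toward high GC (Pearson's r -0.45), and with CS2 they do not (0.05).

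Gene span had a weak relation to the effects. Over the 42 genes Pearson's r between log10 of the span and the log2 fold change was -0.13 for CS2 and 0.06 for FB23-2. Of the 8 genes spanning over 50 kb, 5 fell and 2 rose with CS2 (median -0.50), while of the 19 genes up to 20 kb 5 fell and 3 rose (median -0.095). With FB23-2, 3 of the 8 long genes fell (median -0.096), as did 11 of the 19 short ones (median -0.27). The 15 genes from 20 to 50 kb had 4 lower and 1 higher with CS2 (median -0.091) and 7 lower and 1 higher with FB23-2 (median -0.14). Over all genes 25.3% were lower and 24.3% higher with CS2, and 26.7% were lower and 25.4% higher with FB23-2. Differences between the span classes were not tested. Spans run between the outermost annotated ends, and the RefSeq promoter of WDR12, in the class over 50 kb, lies well inside its span. Of the 13 genes with an E-box in the promoter, 5 fell and 1 rose with CS2 (median -0.13), and 8 fell with FB23-2 (median -0.27). The 21 genes with a promoter but no match had 7 lower and 3 higher with CS2 (median -0.093), and 8 lower and 1 higher with FB23-2 (median -0.11). Whether genes with and without a match differ was not tested.

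A wider set of 191 further genes of the pathway was counted beside the 42. CS2 raised 46 and lowered 41 of them (24.1% and 21.5%, median -0.0099), and FB23-2 raised 31 and lowered 62 (16.2% and 32.5%, median -0.095). Over all tested genes, 24.3% were higher and 25.3% lower with CS2, and 25.4% and 26.7% with FB23-2. Between the compounds, FB23-2 was higher for 38 (19.9%) and lower for 77 (40.3%), against 29.7% and 30% of all genes. Among 15 other RNA polymerase I subunits and factors, CS2 raised 5 (33.3%) and lowered 4 (26.7%). FB23-2 raised 4 of them (26.7%) and lowered 5 (33.3%). TAF1D, of the promoter selectivity factor SL1, fell with CS2 (-0.88 ± 0.094) and rose with FB23-2 (0.78 ± 0.092, log2 ± SE). TAF1C of the same factor rose with CS2 (0.59 ± 0.12), and POLR2L, a subunit that all 3 nuclear polymerases share, fell with FB23-2 (-0.84 ± 0.11).

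Of 45 further small subunit genes CS2 raised 9 (20%) and lowered 8 (17.8%), under the background of 24.3% and 25.3%. FB23-2 raised 3 (6.67%) and lowered 17 (37.8%), where the background was 25.4% and 26.7%. DDX10 fell with CS2 (-0.79 ± 0.11) and IMP3 rose (0.49 ± 0.13), while DHX37, the helicase that UTP14A serves, fell with FB23-2 (-0.89 ± 0.101) and WDR36 rose (0.38 ± 0.091). Of 55 further 60S genes CS2 raised 12 (21.8%) and lowered 15 (27.3%), and FB23-2 raised 13 (23.6%) and lowered 16 (29.1%), all near the background. MDN1, the giant AAA ATPase of 60S maturation, fell with CS2 from 262 ± 18.4 to 129 ± 7.04 CPM (-1.03 ± 0.085, edgeR adjusted p = 6.91e-09), and BCCIP rose (0.56 ± 0.103). With FB23-2 RSL24D1 rose (0.85 ± 0.098) and GRWD1 fell (-0.71 ± 0.089).

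Among 12 snoRNP assembly factors CS2 raised 5 (41.7%) and lowered 1 (8.33%), and FB23-2 raised 1 (8.33%) and lowered 4 (33.3%). Over all genes these shares were 24.3% and 25.3% with CS2, and 25.4% and 26.7% with FB23-2. NOPCHAP1 rose (0.63 ± 0.087) and ZNHIT6 fell (-0.28 ± 0.102) with CS2, and RPAP3 rose (0.54 ± 0.102) and SHQ1, the dyskerin chaperone, fell (-0.67 ± 0.088) with FB23-2. Of 25 exosome and endonuclease genes CS2 raised 7 (28%) and lowered 4 (16%), and FB23-2 raised 4 (16%) and lowered 5 (20%). RPP25L rose with CS2 from 15.2 ± 0.194 to 36.2 ± 2.37 CPM (1.26 ± 0.12, edgeR adjusted p = 5.8e-08), and POP1, the large protein of RNase P and RNase MRP, fell with CS2 (-0.52 ± 0.11) and FB23-2 (-1.03 ± 0.11). RPP40 rose with FB23-2 (0.57 ± 0.14). Of 21 genes of RNA polymerase III and 5S rRNA transcription CS2 raised 4 (19%) and lowered 7 (33.3%). FB23-2 raised 4 of them (19%) and lowered 10 (47.6%). POLR3GL rose (1.14 ± 0.18) and BDP1 fell (-0.72 ± 0.099) with CS2. GTF3C6 had the largest FB23-2 decrease of the wider set, from 33.3 ± 2.78 to 12.4 ± 1.36 CPM (-1.43 ± 0.11, edgeR adjusted p = 2.18e-09), and POLR3E rose (0.53 ± 0.085). Of 6 rRNA modifying enzymes FB23-2 lowered 3 (50%), NSUN5 most (-0.52 ± 0.095), and the CS2 estimates lay between -0.045 and 0.22.

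In the MYC family and its partners, 12 genes, CS2 raised 4 (33.3%) and lowered 2 (16.7%), against 24.3% and 25.3% of all genes. FB23-2 raised 2 and lowered 2 (16.7% each), against 25.4% and 26.7%. MYCN, the most abundant of those named here, fell with CS2 from 1229 ± 34.9 to 862 ± 124 CPM (-0.51 ± 0.098, edgeR adjusted p = 0.000241; SD and n = 3 for CPM). MXD4, a MAX partner that opposes MYC at the E-box, rose with CS2 (0.90 ± 0.094) and fell with FB23-2 (-0.69 ± 0.094), and MXD1, of the same kind, rose with FB23-2 (0.88 ± 0.11).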

How the data were processed

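The table holds whole-number counts per Ensembl gene as the authors deposited them, with 1 column per library and no normalization. The labels list 15 samples. Columns for the 9 H69 samples were matched by name (FB23 in a column was read as FB23-2), and H82, with 6 samples, was not analysed here. TRIzol was used for RNA and an mRNA kit for the libraries, per the labels' protocols, and reads were placed on hg38, per the submitters' processing notes. For the aligner, counting tool, annotation and strand setting the sources used here give nothing, so reads of overlapping or near-identical genes may be split or mixed. The 42 genes, their roles and the 8 lists of further pathway genes were chosen with earlier results of these data known.

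The fit used edgeR 4.0.16 under R 4.3.3. Low genes were removed by filterByExpr (minimum count 10, minimum total 15) and scaled by TMM. All 9 libraries, in 3 groups, entered 1 quasi-likelihood fit (glmQLFit with robust estimation, glmQLFTest) without covariates, and the biological coefficient of variation was 0.101. A gene was called when its p, adjusted by Benjamini and Hochberg's method across every tested gene, was under 0.05. The SE is the size of the log2 fold change divided by the square root of F. The scripts were tested on simulated counts with known fold changes. GENCODE release 29 (GRCh38), with 58261 of the identifiers, gave coordinates, spans and overlaps. Between libraries of 1 group the chi-square per degree of freedom was 4.16 to 48.9, more than sampling noise gives, so each counted as its own library. FB23-2 replicate 2 stood apart, with 48.9 and 47 against the others of its group, while no other pair exceeded 14. Limits from counts cover counting error only.

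Values in every library were given to genes chosen by rule: the largest estimate of each role for each compound, genes called with both compounds, and the 3 highest and 3 lowest between the compounds. From each further list the largest called gene in each direction was named. The 19 alternatives included RLE factors, DESeq2 1.42.0, other filters, a replicate block, leaving out each library, and a correction for transcript GC content and gene span fitted with mgcv 1.9.3 over 18912 genes.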

Additional observations from a re-analysis of the deposited data

How the results depend on the processing

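Of the calls on the 42 genes, 15 of 20 for CS2, 13 of 22 for FB23-2 and 17 of 25 between the compounds held in all 19 alternatives. Sign changes between estimates that both missed the threshold were left uncounted (23, 22 and 18). Under the correction for GC content and span, FB23-2 raised 0 of the 42 genes with or without the replicate block, and with the block FB23-2 was higher than CS2 for 10. Of all genes, 27.2% were then higher with FB23-2 than with DMSO, and 28.2% higher than with CS2. WDR75 with FB23-2 went from 0.049 to -0.18 on the log2 scale with the correction and the replicate block; the cause was not tested. Replicate numbers were not taken to pair the libraries, since only 2 of 9 same-numbered pairs had a correlation of deviations over 0.1. Same-numbered pairs ran from -0.0303 to 0.167, and other pairs from -0.138 to 0.0281. Both pairs over 0.1 joined CS2 with FB23-2 (0.167 for replicate 1 and 0.123 for replicate 2), and replicate 3 of these groups gave 0.049. Whether CS2 and FB23-2 libraries share a replicate effect was not tested. With the replicate block alone, 10271, 10698 and 12136 genes were called for CS2, FB23-2 and between the compounds (9829, 10290 and 11799 without it), and among the 42 WDR75 (CS2, 0.22), RRP9 (-0.26) and RRP12 (0.21, both between the compounds) also passed. Leaving out 1 library at a time gave 8345 to 11024, 8795 to 10491 and 10965 to 11848 genes called. Of the 42, 11 to 15, 16 to 21 and 18 to 21 were then lower and 4 to 7, 1 to 3 and 6 to 7 higher. Of all genes, 21% to 27.4%, 22.1% to 26.2% and 27% to 29.2% were lower in these fits. Higher were 20.1% to 26.9%, 21.2% to 25.6% and 26.7% to 29%. DESeq2 called 14 lower and 6 higher for CS2, and 20 and 1 for FB23-2. Of all genes to which DESeq2 gave an adjusted p, 18.5% were lower and 18.3% higher for CS2, and 19.5% and 19.1% for FB23-2. Without a filter on low counts TCOF1 and PES1 (CS2) and MYBBP1A (FB23-2) no longer passed. NOP2, the gene with the fewest counts, had the largest SE for CS2, 0.26 on the log2 scale, with PPAN next at 0.14.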
